A study of Homo sapiens with 12 samples.

Results

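The 10 genes described here encode albumin, alpha-fetoprotein and other carrier proteins that hepatocytes secrete into blood plasma: ALB, AFP, TTR, GC, RBP4, TF, HP, HPX, AHSG and ORM1. They were chosen by gene name, and all 10 were found among the 22963 names of the expression file. The list was selected on earlier results for the same FPKM values, in which ALB was already known to be higher in both comparisons, so the changes of the 10 genes are given as a description and not as tests. RNA was sequenced from 12 libraries of human liver cancer cell lines grown in DMEM with fetal bovine serum, in 4 groups of 3. PLC/PRF5 cells carried either the empty vector or EGR1, a zinc-finger transcription factor, expressed in a stable line from a lentiviral plasmid under a CMV promoter. MHCC97H cells were either parental or labelled EGR1 knockout. The study made its CRISPR/Cas9 knockout lines from single clones, and which clone was sequenced is not given in the sources used here. The labels number the libraries of a group as biological replicates without naming separate cultures, so every standard error measures the spread between these libraries.

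Albumin is the main protein of plasma and carries fatty acids, hormones and drugs. Alpha-fetoprotein is its fetal relative, made by the fetal liver, silenced after birth and made again by many liver tumors. The other carriers divide by cargo, with retinol, thyroid hormone and vitamin D bound by RBP4, TTR and GC, iron by TF, hemoglobin and heme by HP and HPX, and drugs or mineral complexes by ORM1 and AHSG. Their genes are read by liver-enriched transcription factors such as the HNF1, HNF4, FOXA and C/EBP families, and several of them respond to inflammation.

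EGR1 itself had an FPKM (fragments mapped to a gene, corrected for the length of its transcript and the size of the library) of 1.97, 1.43 and 2.03 in the vector libraries and 56.3, 50.2 and 52.2 in the EGR1 libraries. In MHCC97H it was 20.2, 23.1 and 21.2 in the parental libraries and 35.2, 50.3 and 32.9 in those labelled knockout. EGR1 mRNA was thus higher, not lower, under the knockout label (log2 fold change 0.83, limma adjusted p = 0.00126, or 0.49 with a correction for transcript GC content and length), and "the libraries labelled knockout" is used throughout. The study checked its knockout clones by western blot and DNA sequencing. Protein was not measured here, and the mRNA level does not tell whether EGR1 protein was lost. The total FPKM of the libraries ranged from 376335 to 437652. The reads behind these values are not known, and counting error could not be derived. Of 8 hepatocyte markers, 6 reached a mean FPKM of 1 in PLC/PRF5 cells (APOB, SERPINA1, ASGR1, KRT8, KRT18 and CPS1), with a summed level of 4285 to 4670 in vector and 4893 to 6115 in EGR1 libraries. In MHCC97H cells 3 did in the parental libraries (APOB, KRT8 and KRT18) and 2 in those labelled knockout (KRT8 and KRT18), while SERPINA1, ASGR1 and CPS1 stayed below 1 in both, and the sum was 1446 to 1827 and 2206 to 2640. Within the PLC/PRF5 sum the mean of SERPINA1 was 1372 in vector and 2579.8 in EGR1 libraries, that of ASGR1 174 and 149, and that of CPS1 446 and 384. In MHCC97H the mean of KRT8 was 1102 in parental libraries and 1775.5 in those labelled knockout, and that of KRT18 517 and 635. In the same order APOB was at 1.27 and 0.150, ASGR1 at 0.397 and 0.119 and SERPINA1 at 0.212 and 0.151. CYP3A4 was at 0.125 and 0.0799, CPS1 at 0.0106 and 0 and TAT at 0.537 and 0.572. The summed level of 5 bile duct markers, led by KRT7, KRT19 and SOX9, was 126 to 154 in parental libraries and 240 to 279 in the libraries labelled knockout, and 7.49 to 9.31 against 14.7 to 15.4 in EGR1 against vector libraries. The 6 fibroblast markers summed to 7.52 to 10.9 in parental libraries and 1.05 to 1.54 in those labelled knockout, and to no more than 1.91 in PLC/PRF5. The 5 endothelial markers summed to 2.09 to 2.66 in vector, 1.503 to 1.58 in EGR1 and 5.501 to 5.73 in parental libraries and to 7.20 to 8.51 in those labelled knockout, where KDR reached a mean of 1 beside PECAM1, while CLEC4G was listed at 0 in every library. Among 5 leukocyte markers, LYZ alone reached a mean of 1 in PLC/PRF5 cells, where the defining marker PTPRC was listed at 0 in all 6 libraries, and the sum was 114 to 178 in vector and 95.4 to 118 in EGR1 libraries. In MHCC97H the leukocyte sum was 0.791 to 0.901 in parental libraries and 1.19 to 1.91 in those labelled knockout, where CD14 reached a mean of 1 and CD3E was listed at 0. The part of these markers in the values below was not tested. In bulk RNA, fewer expressing cells and less RNA per cell cannot be told apart.

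ALB and AFP are neighbours on the plus strand of chromosome 4 (GRCh38). In the GENCODE annotation ALB spans 73397114 to 73421412 and AFP spans 73431138 to 73456174, with 9.73 kb between these spans. GC, the third member of the same family in the list, lies 1593 kb before the ALB span on the minus strand, from 71741693 to 71804041. The RefSeq starts used below lie inside the GENCODE spans, as the windows before them end at 73404286 (ALB) and 73436220 (AFP). The distance from the end of ALB to the RefSeq start of AFP is therefore longer than 9.73 kb. The stretches just upstream of the RefSeq starts of ALB and AFP are shown because HNF1, a factor that liver promoters are known to use, has its core letters in both. The ALB stretch is chr4:73404037-73404238 and the AFP stretch chr4:73435971-73436162 (GRCh38, plus strand), each read from 250 bases before the start and ended before the first annotated exon base, 49 and 59 bases before it. Capitals mark the HNF1 core GTTAAT and the CCAAT box, the latter written ATTGG where it lies on the minus strand.
ALB: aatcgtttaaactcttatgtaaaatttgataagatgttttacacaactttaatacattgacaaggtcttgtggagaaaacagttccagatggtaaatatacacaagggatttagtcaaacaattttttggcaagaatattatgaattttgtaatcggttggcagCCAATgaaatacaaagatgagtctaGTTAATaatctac
AFP: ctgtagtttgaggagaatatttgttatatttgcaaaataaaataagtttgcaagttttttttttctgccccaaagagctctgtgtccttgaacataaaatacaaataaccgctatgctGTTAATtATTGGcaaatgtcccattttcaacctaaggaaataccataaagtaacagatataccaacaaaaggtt
The HNF1 core stood 61 to 56 bases before the ALB start and 132 to 127 bases before the AFP start. The letters of the CCAAT box stood 86 to 82 bases before the ALB start and, reversed, 125 to 121 bases before the AFP start. In AFP they lie next to the HNF1 core, and whether they form a separate element was not tested. A further, reversed match lies 44 to 40 bases before the ALB start, beyond the stretch shown. Both strands were searched, and among all 35116 RefSeq windows of 250 bases, 6.23% held the HNF1 core and 32.0% the CCAAT box. These shares were not matched for GC content, which was 30.0% in the ALB window and 31.6% in the AFP window.

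In PLC/PRF5 cells, ALB had an FPKM of 108, 125 and 113 in the vector libraries and 191, 209.9 and 202 in the EGR1 libraries. Every EGR1 library was above every vector library, and the mean went from 116 ± 8.74 (SD, n = 3) to 201 ± 9.73 (SD, n = 3), 1.74 times as high. On the log2(FPKM + 1) scale ALB rose by 0.79 (standard error 0.09). By mean FPKM it moved from place 556 to place 261 among the 22963 names. AFP had 9.11, 14.9 and 12.01 in the vector libraries and 15.2, 16.8 and 17.1 in the EGR1 libraries. These groups did not overlap either, but vector library 2 came close to the lowest EGR1 library. The log2 difference of AFP was 0.44 (standard error 0.15) and did not pass the threshold used, an adjusted p of 0.05 over all genes. It passed without vector library 2 (0.60), with the replicate number as a block, after scaling to equal totals (0.42) and with all 12 libraries in one fit. With a correction for the GC content and length of transcripts it was 0.16 and did not pass, against 0.62 for ALB, which still passed.

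MHCC97H cells held far less of both mRNAs. In the parental libraries ALB was at 1.21, 0.611 and 0.830, and in the libraries labelled knockout at 16.5, 15.1 and 14.1. The groups lay far apart, with means of 0.885 ± 0.305 and 15.2 ± 1.22 (SD, n = 3 each), and ALB rose by 3.11 on the log2 scale (standard error 0.14). As FPKM, the mean was 17.2 times as high, but the level under the knockout label was still below every PLC/PRF5 library. AFP had 0.392, 0.345 and 0.534 in the parental libraries and 1.12, 1.57 and 1.75 in those labelled knockout. Again no library of one group reached the other, although the mean AFP over the 6 libraries was below 1 and AFP was left out of the fit, so that its log2 difference of 0.79 has no test there. The third gene of the cluster, AFM (afamin, a vitamin E carrier), begins 25.5 kb beyond AFP and stayed between 0.0168 and 0.214 FPKM in all 12 libraries, with overlapping groups in both cell lines.

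**Figure D1:**
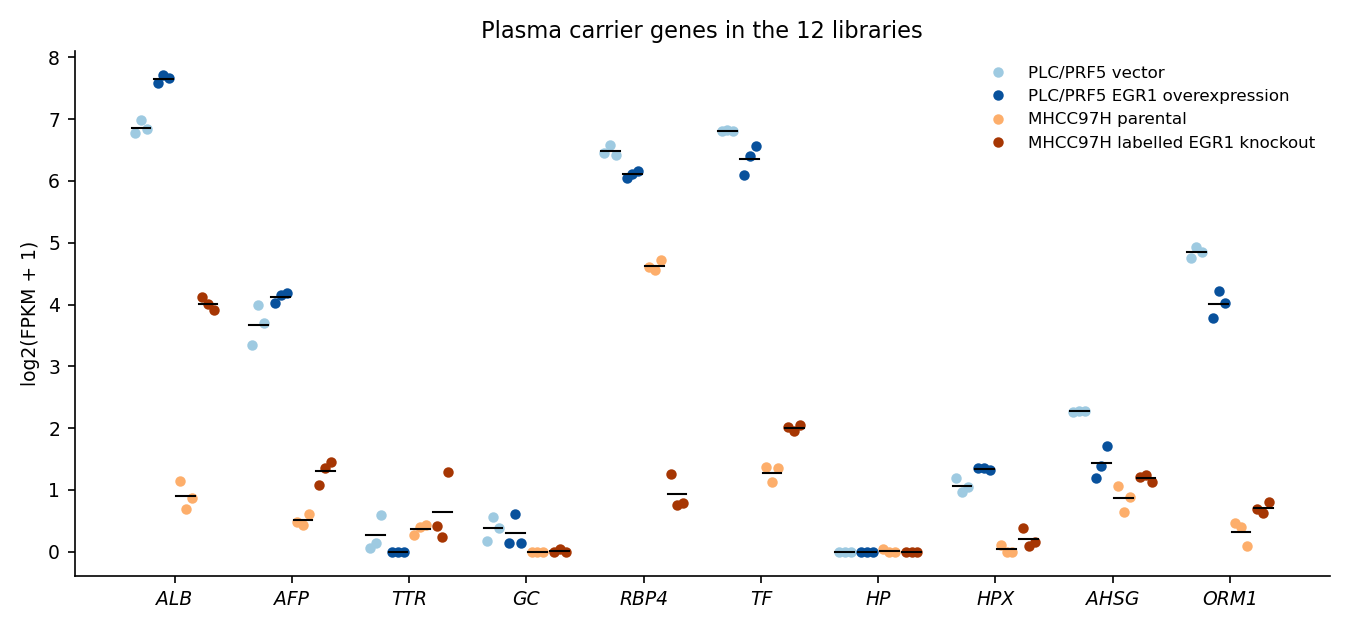
Expression of the 10 carrier genes as log2(FPKM + 1) on the vertical axis, 1 point per library, with the 3 libraries of each of the 4 groups side by side and a black bar at each group mean. ALB is higher in EGR1 than in vector libraries (201 against 116 FPKM) and in the libraries labelled knockout than in parental ones (15.2 against 0.885 FPKM), RBP4 drops to 0.937 FPKM under the knockout label, and HP lies at or near 0 in every group.

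The ratio of ALB to AFP mRNA was 11.9, 8.44 and 9.42 in the vector libraries and 12.5, 12.5 and 11.8 in the EGR1 libraries, with means of 9.92 ± 1.78 and 12.3 ± 0.407 (SD, n = 3 each). These ranges overlapped. It was 3.10, 1.77 and 1.56 in the parental libraries and 14.7, 9.58 and 8.07 in those labelled knockout, without overlap. The ratio in the libraries labelled knockout (mean 10.8 ± 3.49, SD, n = 3) overlapped that of both PLC/PRF5 groups, although the levels of both mRNAs were far lower.

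RBP4, which carries retinol from the liver to other tissues, is found at 93591687 to 93601744 of chromosome 10, minus strand. It had an FPKM of 86.2, 95.1 and 85.1 in the vector libraries and 65.1, 68.5 and 70.6 in the EGR1 libraries. The EGR1 libraries were all lower, and RBP4 fell by 0.38 on the log2 scale (standard error 0.08), from a mean of 88.8 ± 5.50 to 68.1 ± 2.77 (SD, n = 3 each). In the MHCC97H parental libraries RBP4 was at 23.4, 22.5 and 25.3, and in the libraries labelled knockout at 1.38, 0.690 and 0.736. RBP4 was the most abundant of the 10 mRNAs in parental cells, and under the knockout label it fell by 3.69 on the log2 scale (standard error 0.14), the mean FPKM being 25.3 times lower. Its place among all names by mean FPKM went from 2761 to 11525, while that of ALB went from 11780 to 4314. RBP4 overlaps FFAR4 on the other strand, whose mean FPKM was at most 0.119 in any group. Because the strand setting of the counting is not given in the sources used here, reads of the overlap cannot be assigned with certainty.

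TTR (transthyretin, the partner of RBP4 in plasma and a carrier of thyroid hormone) was close to the limit of what these files list. Its gene spans 31557010 to 31599021 of chromosome 18, plus strand. Its FPKM was 0.0428, 0.104 and 0.514 in the vector libraries, and it was listed at 0 in all 3 EGR1 libraries. In MHCC97H it was 0.208, 0.314 and 0.358 in the parental libraries and 0.338, 0.183 and 1.44 in those labelled knockout, where a single library made the higher mean and the groups overlapped. The vitamin D carrier GC was at 0.134, 0.475 and 0.311 in the vector libraries and 0.101, 0.531 and 0.109 in the EGR1 libraries, which overlapped. In MHCC97H, GC was listed at 0 in 5 of 6 libraries and at 0.0301 in library 2 of those labelled knockout. Both genes were too low for the fit in either cell line.

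TF (transferrin, the iron carrier of plasma) occupies 133745956 to 133796640 of chromosome 3, plus strand. It was nearly the same in the vector libraries, at 111, 113 and 111 FPKM, and spread more widely in the EGR1 libraries, at 67.2, 83.7 and 93.8. All EGR1 libraries were lower, and TF fell by 0.46 on the log2 scale (standard error 0.12), from a mean of 112 ± 1.08 to 81.6 ± 13.5 (SD, n = 3 each). The call did not hold without vector library 1 (-0.47), vector library 3 (-0.46) or EGR1 library 2 (-0.49), nor with every gene above 0 in the fit, while the GC and length correction moved the difference to -0.98. In MHCC97H, TF was at 1.58, 1.19 and 1.56 in the parental libraries and 3.07, 2.85 and 3.13 in those labelled knockout. It rose there by 0.72 (standard error 0.11), or by 1.39 with the GC and length correction, which for TF rests on a single annotated transcript of 20602 bases. TF overlaps SRPRB, a subunit of the signal recognition particle receptor, on the same strand, so reads could be divided between them. SRPRB had a mean of 39.0 in vector and 41.0 in EGR1 libraries with overlapping groups (log2 difference 0.06, limma adjusted p = 0.662), and rose from 27.3 to 38.6 under the knockout label (log2 difference 0.49, limma adjusted p = 0.00114).

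HP (haptoglobin, which binds free hemoglobin) is on chromosome 16 from 72054592 to 72061055 and was listed at 0 in 11 of 12 libraries, with 0.0292 in parental library 1. Its near-identical neighbour HPR was listed at 0 in all 12. Reads that such copies share can be divided or dropped by the counting, and 3031 names in the file are assembled loci without a position here, so HP is reported as listed at 0 and no more. HPX (hemopexin, which binds free heme) is on chromosome 11 from 6431049 to 6442617. It had 1.30, 0.950 and 1.07 FPKM in the vector libraries and 1.551, 1.564 and 1.4999 in the EGR1 libraries. The groups did not overlap, and the log2 difference of 0.27 (standard error 0.10) did not pass the threshold, though it did with all 12 libraries in one fit. In MHCC97H, HPX was at 0.0817 in parental library 1 and listed at 0 in the others, and at 0.302, 0.0643 and 0.111 under the knockout label, with overlap.

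ORM1 (alpha-1-acid glycoprotein, an acute-phase protein that binds basic drugs) is on chromosome 9 from 114323056 to 114326475, and its near-identical copy ORM2 begins 3.39 kb beyond it. ORM1 had 25.9, 29.6 and 27.8 FPKM in the vector libraries and 12.8, 17.7 and 15.2 in the EGR1 libraries. It fell by 0.84 on the log2 scale (standard error 0.12), with every EGR1 library below every vector library. ORM2 went the same way, from a mean of 6.86 ± 0.350 to 3.90 ± 0.791 (SD, n = 3 each; log2 difference -0.69, limma adjusted p = 0.00556). The ratio of ORM1 to ORM2 was 3.95, 4.09 and 4.10 in the vector libraries and 4.26, 3.93 and 3.63 in the EGR1 libraries, which overlapped, and how reads of these copies were divided is not known. In MHCC97H, ORM1 was at 0.378, 0.327 and 0.0696 in the parental libraries and 0.612, 0.553 and 0.751 in those labelled knockout, without overlap but too low for the fit.

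AHSG (fetuin-A, which keeps calcium phosphate in solution) is on chromosome 3 from 186612923 to 186621318. The vector libraries were close together at 3.82, 3.86 and 3.87 FPKM, and the EGR1 libraries were at 1.28, 1.61 and 2.29. AHSG fell by 0.85 on the log2 scale (standard error 0.14). As FPKM, its mean was 2.23 times lower, beside 1.82 times for ORM1. In MHCC97H it was at 1.08, 0.567 and 0.855 in the parental libraries and 1.32, 1.36 and 1.19 in those labelled knockout. Its log2 difference there was 0.33 (standard error 0.13) and did not pass the threshold. It passed with quantile normalization (0.45), without a trend, with all 12 libraries in one fit and without parental library 1 (0.43), and the sign turned with the GC and length correction (-0.0485).

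In PLC/PRF5 cells, 7 of the 10 genes reached the mean of 1 FPKM needed for the fit. Of these, ALB was called higher and RBP4, AHSG, TF and ORM1 lower, while AFP and HPX did not pass. Over all 11671 genes tested, 29.6% were called, 19.2% higher and 10.4% lower. The groups did not overlap for 7 of the 7 carriers tested, against 47.7% of all genes. In MHCC97H cells 4 of the 10 were tested. ALB and TF were called higher and RBP4 lower, and ALB, RBP4 and AHSG reached the filter only through the group where they were higher. There 66.3% of the 11577 genes tested were called, 34.8% higher and 31.5% lower, and 71.8% did not overlap. Scaling all libraries to equal totals shifted the median of all MHCC97H genes by -0.13 and the share of calls that were higher from 52.5% to 41.6%. In PLC/PRF5 that share went from 64.8% to 46.0% with quantile normalization and to 47.3% with the GC and length correction. Across genes, which are not independent replicates, Spearman's rho between transcript GC content and the log2 difference was -0.44 in PLC/PRF5 and 0.77 in MHCC97H. Beside a median GC content of 49.4% and 49.6% in the genes tested, ALB stood at 42.3%, AFP at 40.0%, RBP4 at 53.7%, TF at 42.2%, AHSG at 54.2% and ORM1 at 53.0%. The value of TF rests on a single annotated transcript of 20602 bases. Because the list was chosen with these changes known, nothing is read from its counts.

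**Figure D2:**
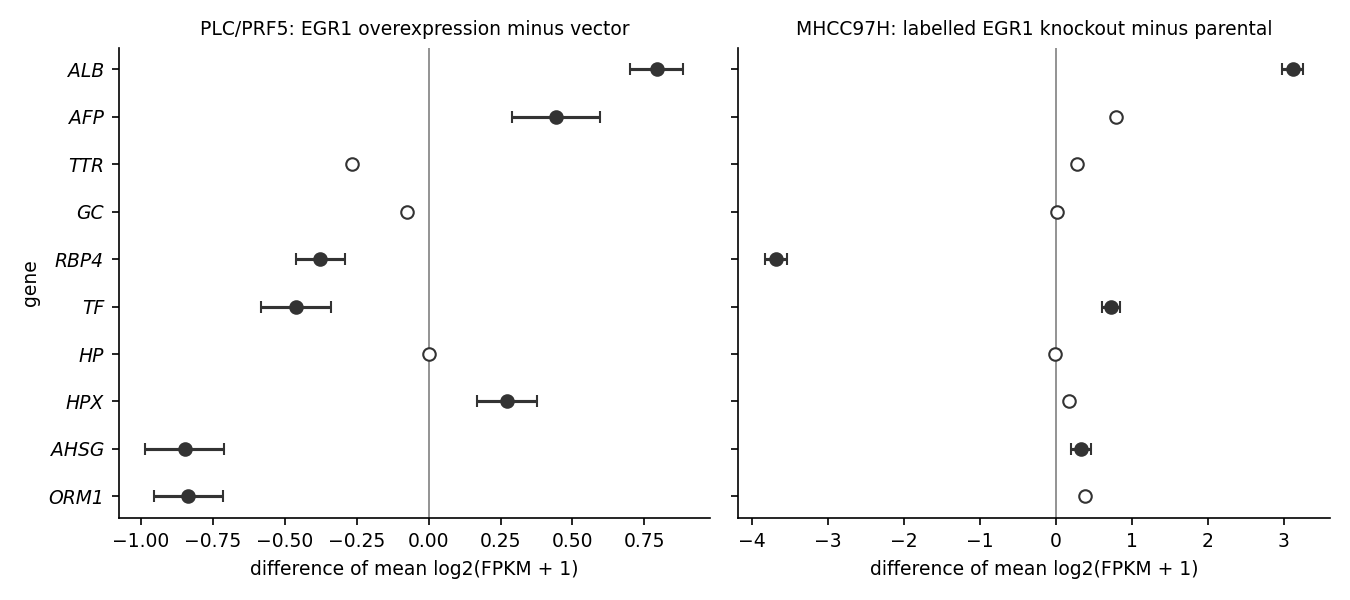
Difference of mean log2(FPKM + 1) on the horizontal axis for the 10 carrier genes, EGR1 overexpression minus vector on the left and labelled EGR1 knockout minus parental on the right, on different scales. Filled points with bars of 1 standard error are genes in the limma fit and open points are genes below the filter. ALB stands at 0.79 and 3.11, RBP4 at -0.38 and -3.69, and TF at -0.46 and 0.72.

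The make-up of the carrier mRNAs differed between the groups of both lines. The summed FPKM of the 10 genes lay between 346 and 383 in the vector libraries and between 354 and 403 in the EGR1 libraries, which overlapped. In vector cells ALB, TF and RBP4 made up 32.0%, 30.9% and 24.6% of the sum, and ALB and TF overlapped in level (ALB to TF ratio 0.978, 1.11 and 1.02). In EGR1 cells ALB alone made up 52.2% ± 1.85 (SD, n = 3), ahead of TF with 21.1% and RBP4 with 17.7%, and TF and RBP4 overlapped. Below them the order was ORM1, AFP, AHSG and HPX in vector cells. In EGR1 cells AFP and ORM1 overlapped, as did AHSG and HPX.

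In MHCC97H the sum was 25.8 to 29.5 in the parental libraries and 22.4 to 24.7 in those labelled knockout. RBP4 made up 85.1% ± 2.34 (SD, n = 3) in parental cells, where TF and ALB overlapped, as did ALB and AHSG, TF stood above AHSG, and AFP, TTR and ORM1 overlapped below them. Under the knockout label ALB made up 65.0% ± 3.69 (SD, n = 3) and TF 12.9%, with AFP, AHSG, RBP4, TTR and ORM1 each overlapping the next. The ratio of ALB to RBP4 was 0.0519, 0.0272 and 0.0328 in the parental libraries and 11.9, 21.8 and 19.1 in the libraries labelled knockout. In PLC/PRF5 it went from 1.26, 1.32 and 1.33 to 2.93, 3.06 and 2.87. Albumin mRNA gained on retinol carrier mRNA in both lines, without overlap.

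**Figure D3:**
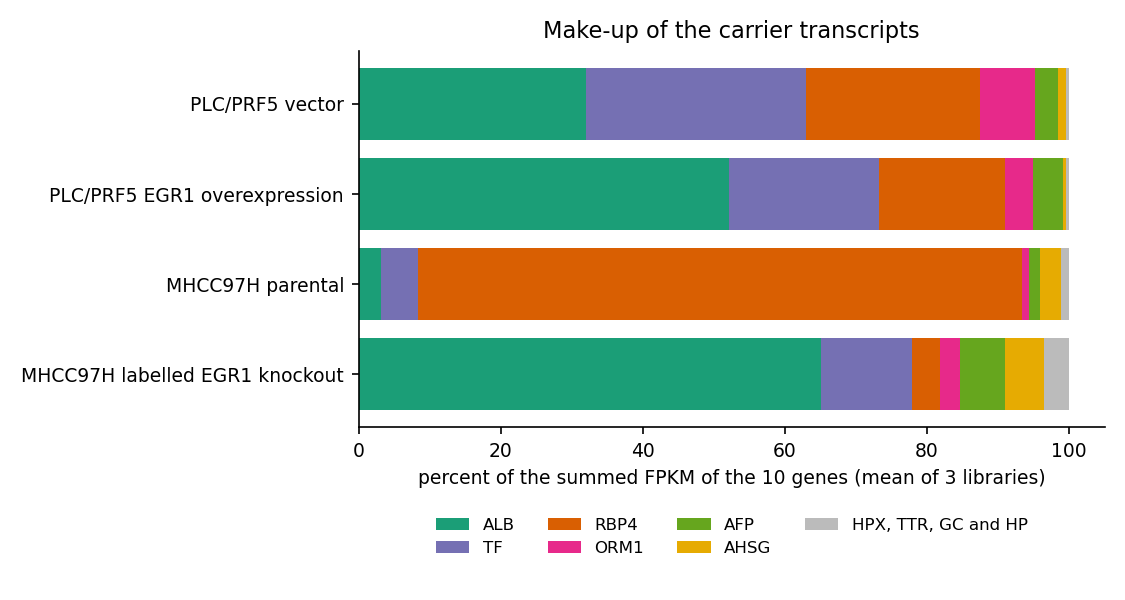
Share of each carrier gene in the summed FPKM of the 10 genes, in percent on the horizontal axis, as the mean of the 3 libraries of each group. ALB takes 32.0% in vector and 52.2% in EGR1 cells, while the MHCC97H bars go from 85.1% RBP4 in parental cells to 65.0% ALB under the knockout label.

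RefSeq windows of 250 bases before the start were at hand for 7 of the 10 genes, 10 windows in all (GRCh38.p14), and not for TTR, GC and HP. The HNF1 core was found in the ALB and AFP windows and in none of the windows of RBP4, AHSG, TF, HPX and ORM1. The TATA box TATAAA stood 29 to 24 bases before the start of both AFP and ORM1 and 31 to 26 bases before one start of RBP4. The window of another RBP4 start held it on both strands, 225 to 220 and, reversed, 227 to 222 bases before that start, and 10.7% of all windows hold it. A CCAAT box was also found in a window each of RBP4, TF and HPX. Neither form of the EGR1 site searched, GCGTGGGCG and GCGGGGGCG, was found in any of the 10 windows, while 0.72% and 4.72% of all windows hold them. The shares over all windows were not matched for GC content, which ran from 30.0% (ALB) to 74.8% (a window of RBP4) in these 10. These are matches of letters in a short window and say nothing of binding.

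Genes next to ALB and RBP4 were compared with them. Within 300 kb of ALB, ANKRD17 was tested in both lines. Its log2 difference was 0.33 in PLC/PRF5, which did not pass, and it fell by 0.56 under the knockout label (by 0.23 with the GC and length correction). RASSF6, on the far side of AFP, was at -0.27 in MHCC97H and did not pass. With the correction it was at 0.42 and passed. The 4 tested genes within 300 kb of RBP4 other than RBP4 itself were MYOF, CEP55, FRA10AC1 and SLC35G1. All of them fell under the knockout label, by 0.56 to 0.98 on the log2 scale, beside 3.69 for RBP4. With the GC and length correction MYOF (-0.37) and CEP55 (-0.50) still passed, and FRA10AC1 (-0.12) and SLC35G1 (-0.23) did not, while RBP4 stood at -4.08. In PLC/PRF5 these 4 genes lay between -0.25 and 0.26 and none passed, though MYOF did with the correction (-0.35).

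**Figure D4:**
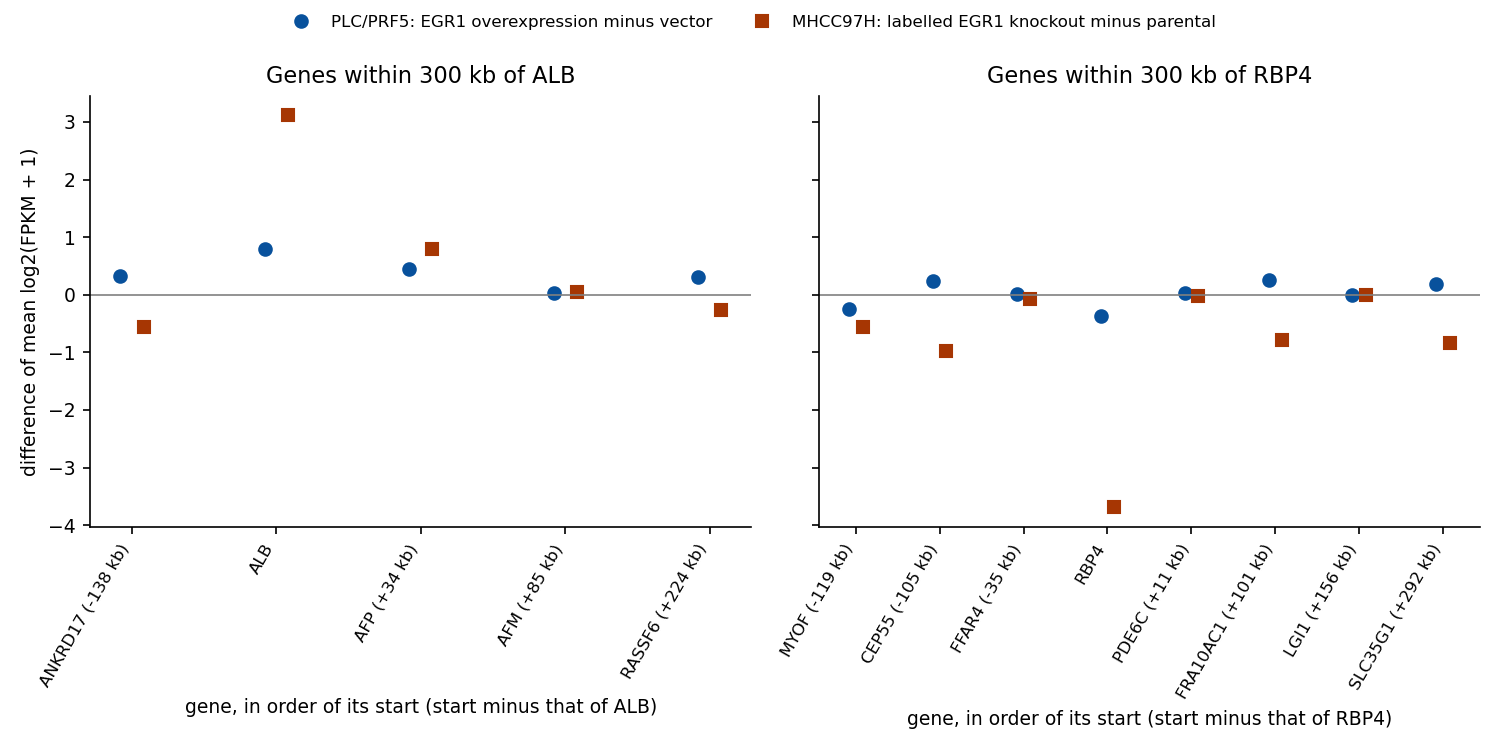
Difference of mean log2(FPKM + 1) on the vertical axis for genes within 300 kb of ALB (left) and RBP4 (right), in the order of their starts, with the distance between starts in kb beside each name. Circles are EGR1 overexpression minus vector in PLC/PRF5 and squares labelled EGR1 knockout minus parental in MHCC97H. The squares of ALB (3.11) and RBP4 (-3.69) lie far from those of their neighbours, which stay between -0.98 and 0.79.

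Among 8437 genes that averaged 1 FPKM or more and had a range of at least 1 on the log2 scale, the 3 whose log2 levels followed ALB most closely over the 12 libraries were FGA (Pearson's r 0.995), NFKBIL1 (0.995) and TJAP1 (0.994). FGA, the alpha chain of fibrinogen, had a mean FPKM of 228 in vector, 266 in EGR1, 3.19 in parental and 24.8 in the libraries labelled knockout. For AFP the closest were AMDHD1 (0.997), RING1 (0.995) and MAFK (0.995). AMDHD1, an enzyme of histidine breakdown, stood at 3.79, 4.44, 0.464 and 0.921 in the same order of groups. Each r joins libraries of both cell lines, and the lines stood apart in every one of these genes.

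Other secreted plasma proteins were taken from a list of 42, of which 24 were tested in PLC/PRF5. This list and those below were also chosen with earlier results of these data known, so their counts and medians are a description. With EGR1 overexpression 6 rose, 6 fell and 12 did not pass, beside 29.6% of all genes called, with a median log2 difference of 0.17 beside 0.09 over all genes. The largest rise was that of APOA1, the main protein of HDL, from a mean FPKM of 3.18 ± 1.02 to 113 ± 4.77 (SD, n = 3 each; log2 difference 4.80, limma adjusted p = 1.44e-06). IGFBP1, which binds insulin-like growth factors, rose from 261 ± 20.1 to 919.8 ± 87.8 (SD, n = 3 each; log2 difference 1.81, limma adjusted p = 2.76e-05). ITIH2, an inter-alpha-trypsin inhibitor heavy chain, rose from 93.1 to 239 (log2 difference 1.35, limma adjusted p = 4.58e-05). The largest fall was that of SERPINA6, the cortisol carrier of plasma, from 7.60 to 2.60 (log2 difference -1.27, limma adjusted p = 0.000554). KNG1, the precursor of bradykinin, was at 2.75 in vector and 0.996 in EGR1 libraries (log2 difference -0.90). Since it reached the filter only through the former, no p is given, although it is counted among the 6 that fell. ORM2 was the third fall named.

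In MHCC97H cells 12 of the 42 were tested and 30 were below the filter. Under the knockout label 10 rose, 1 fell and 1 did not pass, beside 66.3% of all genes called, with a median log2 difference of 0.79 beside 0.02 over all genes. With the GC and length correction 8 rose and none fell, beside 46.4% of all genes called, with a median of 0.65. Both FGA and FGB, chains of fibrinogen, were among the largest rises, FGA from 3.19 ± 0.142 to 24.8 ± 0.841 (SD, n = 3 each; log2 difference 2.62, limma adjusted p = 5.25e-07) and FGB from 2.63 ± 0.524 to 17.5 ± 1.78 (SD, n = 3 each; log2 difference 2.35, limma adjusted p = 7.04e-06). SERPINA6 was at 0.655 in parental libraries and 4.38 in those labelled knockout (log2 difference 1.71). Since it reached the filter only through the latter, no p is given, although it is counted among the 10 that rose and in the medians. The 1 gene that fell was APOH, from 28.997 to 23.7 (log2 difference -0.28, limma adjusted p = 0.0257), which did not pass with the correction (-0.041), with all 12 libraries in one fit, or without parental library 1 (-0.21) or 2 (-0.27) or library 1 (-0.29) or 2 (-0.25) labelled knockout. The groups of every gene named here did not overlap.

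**Figure D5:**
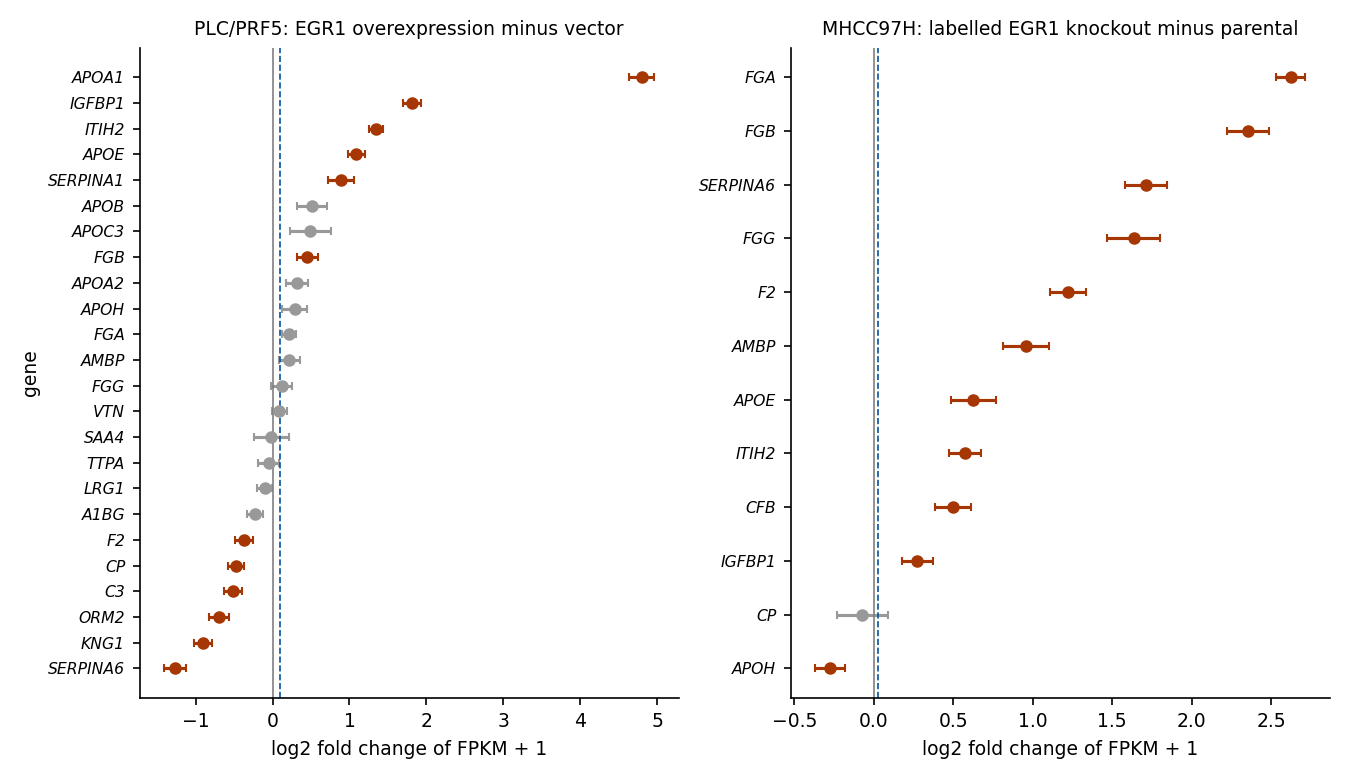
Log2 fold change of FPKM + 1 on the horizontal axis, with bars of 1 standard error, for the other secreted plasma proteins tested in PLC/PRF5 (24 genes, left) and MHCC97H (12 genes, right), on different scales. Orange-brown points passed an adjusted p of 0.05 and grey points did not, and the dashed line is the median of all genes tested (0.09 and 0.02). APOA1 stands far to the right in PLC/PRF5 at 4.80, and FGA, FGB, SERPINA6 and FGG lead in MHCC97H.

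Of 21 liver transcription factors and known AFP repressors, 17 were tested in PLC/PRF5, where 4 rose and 4 fell, or 8 of 17 beside 29.6% of all genes called. HNF4G rose from 2.00 to 4.88 (log2 difference 0.98, limma adjusted p = 0.0045), ONECUT1 from 3.94 to 7.61 (log2 difference 0.82, limma adjusted p = 0.00396) and NR5A2 from 3.76 to 6.42 (log2 difference 0.64, limma adjusted p = 0.00379, or 0.32 with the GC and length correction, which passed). ZHX2, a repressor of AFP in the postnatal liver, fell from 11.8 to 6.84 (log2 difference -0.70, limma adjusted p = 0.00112). FOXA1 fell from 19.4 to 14.0 (log2 difference -0.45, limma adjusted p = 0.0212). The FOXA1 call did not hold without vector library 1 (-0.45) or 3 (-0.42) or EGR1 library 2 (-0.35) or 3 (-0.43), nor with every gene above 0 in the fit. The count of 8 was 5 without vector library 1 or 3 or EGR1 library 2.

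In MHCC97H 15 of these factors were tested, and 8 rose and 1 fell under the knockout label, or 9 of 15 beside 66.3% of all genes called, a share near that background. The C/EBP family led, with CEBPD going from 9.18 ± 1.09 to 34.3 ± 2.61 (SD, n = 3 each; log2 difference 1.80, limma adjusted p = 1.14e-05). CEBPA rose from 79.9 to 153 (log2 difference 0.93, limma adjusted p = 7.51e-05) and CEBPB from 60.2 to 114 (log2 difference 0.91, limma adjusted p = 6.9e-05). With the GC and length correction all 3 still passed, at 1.09, 0.27 and 0.21, while the count over the list became 7 higher and 5 lower, beside 46.4% of all genes called. ZBTB20, the other known repressor of AFP in the adult liver, was at 1.65 in parental libraries and 0.860 in those labelled knockout (log2 difference -0.53). Since it reached the filter only through the former, no p is given, although it is the 1 gene counted as fallen.

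Receptors and enzymes that handle these carriers or their cargo formed a list of 16 names, of which 15 were in the file and 10 tested in PLC/PRF5. HMOX1, the inducible heme oxygenase, rose from 68.2 to 158 (log2 difference 1.20, limma adjusted p = 6.98e-05). FCGRT, the receptor that recycles albumin and IgG, fell from 46.3 to 22.3 (log2 difference -1.02, limma adjusted p = 0.00014), and AMN, a partner of the endocytic receptor cubilin, from 6.98 to 3.80 (log2 difference -0.73, limma adjusted p = 0.00562). With the correction AMN was at -0.46 and passed. The other 7 did not pass, so that 3 of 10 were called beside 29.6% of all genes. In MHCC97H 8 were tested, and 4 rose and 2 fell, or 6 of 8 beside 66.3% of all genes called. HMOX1 rose from 111 to 295 (log2 difference 1.41, limma adjusted p = 3.73e-05) and its constitutive relative HMOX2 from 8.65 to 20.5 (log2 difference 1.17, limma adjusted p = 7.62e-05), and with the correction they passed at 0.88 and 0.68. FCGRT rose from 36.4 to 49.1 (log2 difference 0.42, limma adjusted p = 0.00576), but it did not pass with quantile normalization (0.20) and fell by 0.31 with the GC and length correction. TFRC, the transferrin receptor, fell from 155 to 115 (log2 difference -0.44, limma adjusted p = 0.00652) and SLC40A1, the iron exporter ferroportin, from 54.4 to 40.3 (log2 difference -0.43, limma adjusted p = 0.0232). With the GC and length correction the sign of both turned (0.11 and 0.0071) and neither passed. The SLC40A1 call was also lost without parental library 1 (-0.32) or 2 (-0.42), without library 3 labelled knockout (-0.30) and with every gene above 0 in the fit.

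Of 13 genes of acute-phase signalling, 11 were tested in PLC/PRF5, where 3 rose and 1 fell, or 4 of 11 beside 29.6% of all genes called. IL6ST, the shared receptor chain gp130, rose from 7.25 to 17.0 (log2 difference 1.12, limma adjusted p = 0.00237) and NR3C1, the glucocorticoid receptor, from 14.9 to 21.2 (log2 difference 0.49, limma adjusted p = 0.0141). With the correction NR3C1 was at 0.24 and passed, but not when the replicate block was added. TNFRSF1A, a TNF receptor, fell from 146 to 108 (log2 difference -0.42, limma adjusted p = 0.00645). IL1R1 was called higher (log2 difference 0.30, limma adjusted p = 0.043), but the call was lost without vector library 1 (0.25) or 3 (0.32) or EGR1 library 2 (0.26) or 3 (0.29), with quantile normalization (0.14), equal totals (0.27) or the GC and length correction (0.08), with the replicate block and with every gene above 0 in the fit. In MHCC97H 12 were tested, and 4 rose and 3 fell, or 7 of 12 beside 66.3% of all genes called, a share near that background. SOCS3, an inhibitor that IL-6 signalling induces, rose from 2.12 to 5.85 (log2 difference 1.14, limma adjusted p = 0.000107), TNFRSF1A from 173 to 291 (log2 difference 0.75, limma adjusted p = 0.000234) and NFKBIA from 21.3 to 33.8 (log2 difference 0.64, limma adjusted p = 0.000334). With the correction these passed at 0.61, 0.19 and 0.28, and JAK1 at -0.20. JAK1 fell from 37.4 to 27.3 (log2 difference -0.45, limma adjusted p = 0.0027) and IL6ST from 20.7 to 10.6 (log2 difference -0.94, limma adjusted p = 0.00466), the latter not passing with the correction (-0.35). NR3C1 fell from 8.07 to 6.17 (log2 difference -0.35, limma adjusted p = 0.0443). With the correction it stood at 0.14 and did not pass, and the call was lost without parental library 1 (-0.31) or 2 (-0.30) or library 2 (-0.38) or 3 (-0.22) labelled knockout. The NR3C1 call was also lost with every gene above 0 in the fit.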

How the data were processed

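Total RNA was extracted with Trizol, poly(A) mRNA was purified on oligo(dT) beads, and duplex-specific nuclease was applied to the libraries, which degrades the cDNA of abundant transcripts and can lower their values. The authors deposited FPKM values for every library. The submitters' processing notes name StringTie and hg38, and the aligner, annotation and strand setting are not given in the sources used here. The number of reads is unknown, and whole reads could not be recovered from the FPKM values.

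The 12 libraries were grouped by the sample labels, and no value was filtered or scaled before analysis. Values were transformed as log2(FPKM + 1), so differences of low genes are understated. Genes averaging 1 FPKM or more over the 6 libraries of a cell line were fitted with limma 3.58.1 in R 4.3.3 with an intensity trend, each cell line alone, 2-sided, with Benjamini-Hochberg adjustment over all genes, and called at an adjusted p under 0.05. An exact permutation test of a single gene could not reach that level with groups of 3 and was not used. The members and lists were chosen with earlier results of these data known.

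Named were the 10 genes, EGR1, the paralogs ORM2, HPR and AFM, and from each of 4 lists (other secreted plasma proteins, liver transcription factors and AFP repressors, receptors and handling genes, acute-phase signalling) at most the 3 largest rises and 3 largest falls past the threshold without overlap in each comparison, of which 1 is not reported here. SRPRB, FFAR4, the neighbours of ALB and RBP4 and cell type markers were added for their position or type. The 3 genes most like ALB and AFP were ranked by Pearson's r over 12 libraries. Coordinates, transcript lengths and GC content came from GENCODE release 29 on GRCh38, as medians over annotated protein-coding transcripts, and upstream sequences from RefSeq. Alternatives were a pseudocount of 0.1, any gene with an FPKM above 0, equal library totals, quantile normalization, no trend, one fit over all 12 libraries, a replicate block, a spline correction with 5 degrees of freedom for GC content and log length, both together, and each library left out. Real changes that run with GC content are lost in this correction too. Figures used matplotlib 3.10.9 and Python 3.11.15.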

Additional observations from a re-analysis of the deposited data

Results flagged for a closer look

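For 13 of 44 named genes, the 3 libraries of the treated group all lay on one side of their controls in PLC/PRF5 and on the other side in MHCC97H. Many of the 44 were picked as large changes without overlap, and the share of all genes moving in this way was not counted. Groups did not overlap for 47.7% of all genes tested in PLC/PRF5 and 71.8% in MHCC97H. Spearman's rho between GC content and change was -0.44 and 0.77, so nothing is read from the count of 13. The difference between the cell lines was not tested, and in MHCC97H the treated libraries carry the knockout label, with higher EGR1 mRNA than their controls.

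Of the carriers, AHSG, TF and ORM1 were lower with EGR1 overexpression in PLC/PRF5 and higher under the knockout label in MHCC97H. Their log2 difference in MHCC97H minus that in PLC/PRF5 was 1.18 for AHSG, 1.18 for TF and 1.22 for ORM1. ORM1 was below the filter in MHCC97H and AHSG did not pass there. The paralog ORM2 stood apart by 0.94, and it too was below the filter in MHCC97H (mean FPKM 0.292 in parental libraries and 0.535 in those labelled knockout).

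Among the other secreted proteins, SERPINA6 stood apart by 2.98, the widest gap of the 13, although it reached the filter in MHCC97H only through the libraries labelled knockout. KNG1 stood apart by 1.32, at -0.90 in PLC/PRF5 and 0.42 in MHCC97H. FOXA1 (1.18), CEBPA (1.29), FCGRT (1.44) and TNFRSF1A (1.17) were lower in PLC/PRF5 and higher in MHCC97H. CEBPA was at -0.36 in PLC/PRF5 and 0.93 in MHCC97H. With the GC and length correction FCGRT was lower in both lines (-0.92 and -0.31), and TNFRSF1A was at -0.37 and 0.19. In the opposite sense, IL6ST stood apart by -2.06, NR3C1 by -0.83 and ZBTB20 by -0.83. IL6ST in MHCC97H did not pass with the correction (-0.35). ZBTB20 was at 0.30 in PLC/PRF5 and reached the filter in MHCC97H only through the parental libraries. With the correction NR3C1 was above 0 in both lines (0.24 and 0.14). AHSG in MHCC97H was below 0 with it (-0.0485), as in PLC/PRF5.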

How the results depend on the processing

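Over 15 alternatives to each fit, 150 of 165 values of the carriers kept direction and call, as did 704 of 765 values of all named genes. ALB, RBP4, AHSG and ORM1 passed in every fit in PLC/PRF5, and ALB, RBP4 and TF in every fit in MHCC97H. All these fits reuse the values on which the list was chosen, so they describe the processing and add no support for the changes. In MHCC97H, ALB and RBP4 reached the filter only through the group where they were higher. The sign turned only with the GC and length correction, with or without the replicate block, all in MHCC97H: for AHSG (-0.0485), FCGRT (-0.31), TFRC (0.11), SLC40A1 (0.0071) and NR3C1 (0.14). The cause was not tested.

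With every gene above 0 in the fit, 5 carriers instead of 3 were called in MHCC97H, AFP and ORM1 being added because they then entered the fit. Without 1 library, 5 to 8 liver transcription factors were called in PLC/PRF5. With the GC and length correction, whether or not the block was added, 5 receptor and handling genes instead of 3 were called in PLC/PRF5, and with the correction and the block 2 acute-phase signalling genes instead of 4. The cause was not tested.

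Same-numbered libraries did not deviate together throughout (r -0.13, 0.14 and -0.076 in PLC/PRF5, 0.032, 0.030 and 0.47 in MHCC97H), so the numbers were not taken as pairs. With the replicate block, AFP in PLC/PRF5 passed at an unchanged log2 difference of 0.44. Group means below 1 FPKM limit TTR, GC and HP in both lines and HPX and ORM1 in MHCC97H, and depth is unknown.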
